A study of Drosophila melanogaster with 33 samples.

Results

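Non-clock cells of the adult fly brain, sorted as GFP-negative and DAPI-negative cells, were compared between constant darkness (DD) and light-dark cycles (LD). The members were 7 of the 33 samples of the series, 3 libraries from DD and 4 from LD, taken as every wild-type non-clock library by its cell type, genotype and treatment labels. Accessible chromatin was measured by ATAC-seq, in which a transposase cuts open DNA and inserts sequencing adapters. All 7 libraries carried ClkGAL4 and UAS-GFP-NLS over a wild-type chromosome, so that the nuclei of Clk-expressing neurons were green. Live cells without that mark, neurons and glia, entered the non-clock gate, and the study's methods limit them to cells of similar sizes. LD flies lived under equal spans of light and darkness for several days, and DD flies had the same entrainment followed by constant darkness, for a time that the labels and the study's methods give differently. The treatment labels give no hour of collection for the non-clock libraries. Each library pooled many brains and is called a biological replicate in the study's methods, which name brains of both sexes without the share of each in a library. As a further DD group, 4 non-clock libraries of per01 flies were set beside the wild type. The genotype label of these flies is per01/Y, a null allele of period over a Y chromosome, which is the male genotype, although the methods name brains of both sexes for the study as a whole.

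The brain clock is a transcriptional loop in which the Clk and cyc proteins drive per, tim, vri and Pdp1, and light resets it through cry. Non-clock brain cells are mostly neurons, and a smaller share are glia, some of which also run a clock. The X chromosome needs its own account. Male flies have a single X and raise its transcription through the male-specific lethal (MSL) complex, which carries the noncoding RNAs roX1 and roX2, enters the X at GA-rich elements and spreads to active genes. Females carry a pair of X chromosomes and lack the complex.

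The letters under the summits of the 5 X regions with the largest increase in DD are shown first, because GA repeats were more frequent in the X regions that were higher than in other X regions, with the roX2 start site beside them. Each window holds 201 bases of dm6 centred on the summit, read on the plus strand from the RefSeq sequence of Release 6, with unbroken alternations of G and A, or of C and T, of 6 letters or more in capitals. The pod1 window is chrX:6812160-6812360, the CG6659 window chrX:18654424-18654624, the CG32767 window chrX:5075862-5076062, the hep window chrX:13080522-13080722, the roX1 window chrX:3861293-3861493 and the roX2 window chrX:11578976-11579176. The mir-969 window, chrX:18123825-18124025, and the NetB window, chrX:14716655-14716855, are those of the 2 X regions with the largest decrease.
pod1: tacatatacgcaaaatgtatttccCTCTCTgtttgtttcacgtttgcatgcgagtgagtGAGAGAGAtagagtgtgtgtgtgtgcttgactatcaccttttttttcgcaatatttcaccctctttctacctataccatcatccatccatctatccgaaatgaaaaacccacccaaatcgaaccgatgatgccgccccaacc
CG6659: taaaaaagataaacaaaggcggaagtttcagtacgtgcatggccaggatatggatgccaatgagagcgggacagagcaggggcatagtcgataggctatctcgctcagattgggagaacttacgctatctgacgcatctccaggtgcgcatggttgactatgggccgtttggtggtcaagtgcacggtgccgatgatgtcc
CG32767: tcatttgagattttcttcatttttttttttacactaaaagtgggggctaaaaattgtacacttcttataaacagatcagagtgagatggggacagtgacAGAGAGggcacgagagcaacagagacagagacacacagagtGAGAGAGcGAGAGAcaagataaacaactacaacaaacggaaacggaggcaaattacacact
hep: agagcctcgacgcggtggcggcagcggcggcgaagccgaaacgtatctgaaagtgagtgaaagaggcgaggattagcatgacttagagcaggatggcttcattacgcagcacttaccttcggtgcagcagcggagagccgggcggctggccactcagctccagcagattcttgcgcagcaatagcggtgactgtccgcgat
roX1: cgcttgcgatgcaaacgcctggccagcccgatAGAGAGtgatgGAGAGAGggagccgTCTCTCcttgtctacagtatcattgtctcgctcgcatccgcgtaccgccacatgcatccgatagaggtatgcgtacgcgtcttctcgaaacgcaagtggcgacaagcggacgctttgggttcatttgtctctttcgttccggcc
roX2: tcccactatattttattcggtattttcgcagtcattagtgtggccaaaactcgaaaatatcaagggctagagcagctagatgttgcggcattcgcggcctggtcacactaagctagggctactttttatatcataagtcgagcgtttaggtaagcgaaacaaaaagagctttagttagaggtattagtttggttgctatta
mir-969: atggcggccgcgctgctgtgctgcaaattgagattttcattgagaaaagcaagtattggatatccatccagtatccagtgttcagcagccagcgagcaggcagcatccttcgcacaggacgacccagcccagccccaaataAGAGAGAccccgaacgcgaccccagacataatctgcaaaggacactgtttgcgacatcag
NetB: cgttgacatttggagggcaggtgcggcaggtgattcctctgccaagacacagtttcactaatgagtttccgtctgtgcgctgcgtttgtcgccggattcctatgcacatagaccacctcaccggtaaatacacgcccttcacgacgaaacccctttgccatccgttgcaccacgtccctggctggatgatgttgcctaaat
The CG32767 and roX1 windows held 3 such runs each and the pod1 window 2, whereas the CG6659, hep and roX2 windows held 0. Of the lower regions, the mir-969 window held 1 and the NetB window 0, so single windows did not separate higher from lower regions. The motif GAGAGA, searched on both strands within these windows, was present in 36.6% of the 202 X regions that were higher in DD, against 17.9% of the 1705 that were lower and 16.6% of all 4245 X regions tested. The longer motif GAGAGAGA, which lies within runs that also match GAGAGA, was present in 24.3% of the higher regions, 6.57% of the lower regions and 7.04% of all. The E-box CACGTG, by contrast, was present in 0.99% of the higher X regions and 4.31% of all X regions. Autosomal regions that were higher in DD also held GAGAGA more often, so this was not a trait of the X alone. It was present in 21.9% of the 1077 higher autosomal regions, 9.74% of the 739 lower and 13% of all 19090 tested. For GAGAGAGA the autosomal shares were 7.24%, 2.03% and 4.19%. These shares describe letters and name no bound factor.

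A region is a stretch covered by called peaks of the 7 libraries that share at least 1 bp, and its level in a library is the number of transposase tags at the tallest summit per 1000000 tags of that library (CPM). The DD libraries held 23437 to 25793 peaks and 23.24 to 35.5 M tags (M, 1000000), and the LD libraries 20930 to 24876 peaks and 19.95 to 36.19 M tags. Merging gave 28457 regions, of which 16525 were called in all 7 libraries. DD replicates 1 and 2 and LD replicate 1 were the deepest, at 32.98 to 36.19 M tags, and the other 4 libraries held 19.95 to 24.82 M. LD replicate 1 stood apart from its group. Over 13558 autosomal regions called in every library, its log2 levels correlated with those of the 3 DD libraries at r = 0.981 to 0.984 and with those of the other LD libraries at r = 0.972 to 0.978 (across regions, which are not independent replicates). Among the other LD libraries the coefficients were 0.978 to 0.98, and between them and DD 0.954 to 0.973. All 15 neuron markers examined had a peak in every library, as did 7 of 16 glia markers, while alrm, CG6126 and Mdr65 of the glia markers had none. Of the markers of other cells, 7 of 8 for fat body (Lsp2, Fbp1 and Yp1 among them), 8 of 9 for muscle (Mhc and sls among them) and 7 of 13 for photoreceptors (ninaE, Rh3 and Rh6 among them) had no peak in any of the 7. Peaks were present in all 7 at apolpp of the fat body list, Mef2 of the muscle list and Rh4, Rh5, trp, trpl and norpA of the photoreceptor list. Of the clock neuron markers the Pdf gene had none.

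The X chromosome as a whole had fewer tags in DD than in LD, relative to autosomes. Of 4245 X regions tested, 1705 (40.2%) were lower in DD and 202 (4.76%) higher (limma on log2 tags, Benjamini-Hochberg adjusted p under 0.1), with a median difference of -0.32 on the log2 scale, DD minus LD. Among 19090 autosomal regions the median was 0.03, and the medians of arms 2L, 2R, 3L, 3R and 4 ranged from 0.02 to 0.04. The median X region in DD thus stood at 0.801 of its LD level once autosomes were made equal. Of the 2966 X regions called in all 7 libraries, 88.9% had a difference below 0, against 49.4% of the 13558 autosomal ones. Without DD replicate 2, 761 X regions were lower and 120 higher. The plot of differences by arm shows the shift of the X.

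**Figure D1:**
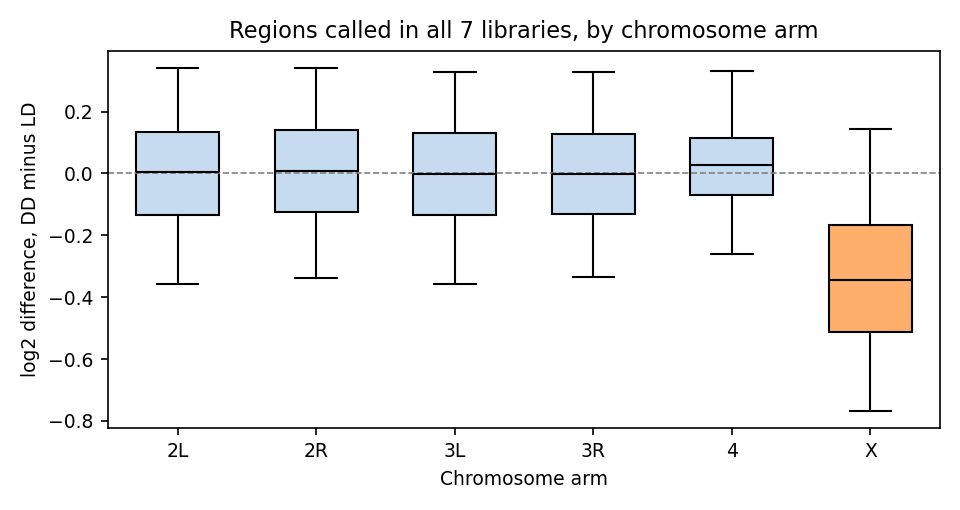
Log2 difference in summit tags, DD minus LD, for regions called in all 7 non-clock libraries, by chromosome arm. Boxes give the quartiles with the median as a line, and whiskers the 5th and 95th percentiles. The autosomal medians lie at 0.0 to 0.03, and the X median at -0.35.

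The ratio of mean tags at 2580 X regions to mean tags at 12406 autosomal regions, all called in every non-clock library, gave the same shift for each sample. It was 0.8686, 0.8476 and 0.8747 in DD, against 0.9989, 1.1341, 1.1499 and 1.096 in LD. The groups did not overlap (0.864 ± 0.0142 in DD and 1.09 ± 0.0677 in LD, SD, n = 3 and 4), and the two-sided exact permutation p was 0.0286, the smallest that the 35 splits of 7 libraries allow. LD replicate 1 was the LD library nearest to DD. In the 4 per01 libraries, labelled per01/Y and kept in DD, the ratio was 0.858 to 0.877, a range that overlaps that of the wild-type DD libraries. Clock neurons sorted from the same genotype showed the same order. Over the 1766 X and 8543 autosomal regions called in all 25 libraries, the ratio was 0.84 ± 0.0172 in the 6 DD and 1.06 ± 0.0607 in the 8 LD clock neuron libraries. Sex makeup and light regime cannot be told apart in these libraries.

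**Figure D2:**
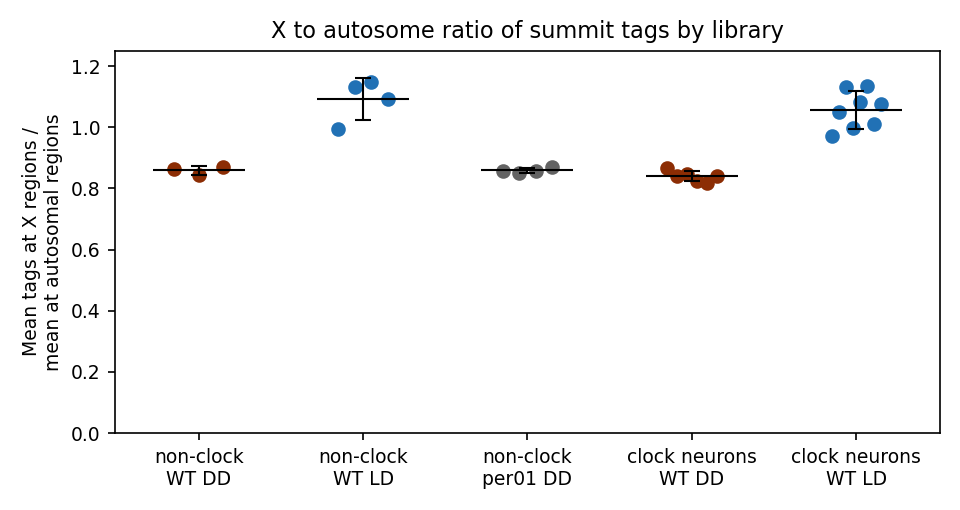
Ratio of mean summit tags at 1766 X regions to that at 8543 autosomal regions, called in all 25 libraries shown. Points are libraries and bars the group mean with its SD. Non-clock DD libraries average 0.859 and non-clock LD libraries 1.09, and the per01 DD libraries average 0.859.

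The Y chromosome gave few peaks. DD libraries had 5, 2 and 1 called Y peaks and LD libraries 1 each, against 12, 5, 4 and 4 in per01 libraries. Summed Y tags were 47.8, 49.4 and 47.1 CPM in DD and 40.5, 36.9, 47.5 and 46.1 CPM in LD (two-sided exact permutation p = 0.171). Most of these tags lay in 1 region at the very start of the Y, which was called in all 7 libraries and held 39.7 to 47.1 CPM in DD and 36.9 to 47.5 CPM in LD. Outside it, Y peaks summed to 8.11, 2.4 and 0.0 CPM in DD and to 0.0 CPM in each LD library. None of the 12 Y-linked genes listed had a tested region.

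A minority of X regions went against the chromosome. Among regions called in all 7 libraries, 42 were higher in DD, and the largest increase was at an exon of pod1 (chrX:6812057-6812498); the gene encodes a coronin-like protein that binds actin. It had 8.48, 9.89 and 10.1 CPM in DD, against 6.24, 2.18, 2.91 and 3.19 CPM in LD, a difference of 1.46 ± 0.27 (SE) on the log2 scale (limma adjusted p = 0.011). Named regions were picked among those without overlap of DD and LD libraries, so this separation is part of the choice. It held at 56.1% of the X regions called in all 7 libraries. At pod1 LD replicate 1 was the highest of the LD group. The per01 libraries held 7.03 to 10.5 CPM. Another of the X regions of largest increase lay at roX1, a noncoding RNA of the MSL complex. At chrX:3861139-3861900, in its exon, DD libraries had 25.4, 28.1 and 30.7 CPM and LD libraries 18.9, 8.26, 8.72 and 12.0 CPM, a difference of 1.28 ± 0.22 (adjusted p = 0.01). All 6 tested regions at roX1 and roX2 were higher in DD. The roX2 start site region (chrX:11578930-11579161) had 9.75, 10.3 and 12.1 CPM in DD, against 7.41, 3.79, 4.51 and 6.0 CPM in LD (0.99 ± 0.19, adjusted p = 0.013).

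The other X regions of largest increase lay in an intron of CG6659 (1.42 ± 0.29), an exon of CG32767 (1.39 ± 0.27) and an intron of hep (1.38 ± 0.24), the kinase that activates JNK in flies. Their levels were 7.35 to 10.5 CPM in DD, 2.1 to 6.6 CPM in LD and 8.12 to 10.7 CPM in per01. Of 275 X regions with a summit in an exon away from a start site, 88 (32.0%) were higher in DD and 57 (20.7%) lower, with a median of 0.07. Start site, intron and intergenic regions of the X had medians of -0.28, -0.38 and -0.37, and 2.31% to 3.42% of them were higher. Of the exonic X regions, 81 held GAGAGA and had a median of 0.37, whereas the 194 without it had a median of -0.1. On autosomes, 102 exonic regions held the motif and had a median of 0.08, and 801 did not and had a median of -0.01.

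The 5 largest falls on the X in DD lay at mir-969, NetB, kirre, CG45002 and trol. The mir-969 start site region, at chrX:18123477-18124196, had 2.2, 1.85 and 2.75 CPM in DD and 2.98, 9.35, 5.21 and 8.77 CPM in LD (-1.43 ± 0.35, adjusted p = 0.03). LD replicate 1 lay closer to the DD libraries than to the rest of LD. An intron of NetB, which encodes the secreted guidance cue Netrin-B, had 2.08, 1.61 and 2.28 CPM in DD and 5.0, 5.4, 5.11 and 4.7 CPM in LD (-1.37 ± 0.16, adjusted p = 0.0023). Here LD replicate 1 was level with the rest of LD. Introns of kirre, an immunoglobulin-family adhesion molecule, of CG45002 and of trol, the fly perlecan of basement membranes, fell by 1.33, 1.28 and 1.27 on the log2 scale.

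Several clock genes also lie on the X, where 2 of their 30 regions (6.67%) were higher in DD and 9 (30%) lower, beside 4.76% and 40.2% of all X regions. The region upstream of per, at chrX:2684545-2686417, had 16.7, 18.0 and 18.0 CPM in DD, against 27.5, 45.4, 40.5 and 41.0 CPM in LD (-1.13 ± 0.15, adjusted p = 0.0046). The X median was -0.32, and the per01 libraries held 23.7 to 31.1 CPM there, above every wild-type DD library. These levels are those of the tallest summit alone. Summed over all called peaks at per, DD libraries had 16.7, 40.1 and 38.0 CPM, from 1, 3 and 3 peaks. The LD libraries had 31.7, 45.4, 40.5 and 41.0 CPM, from 2, 1, 1 and 1 peaks, so the summed tags of the groups overlapped. Of the 18 regions of sgg, the kinase that phosphorylates tim in flies, 3 passed the threshold and were lower, by 0.32, 0.46 and 0.52, so the share of lower sgg regions was below that of the X. At nej, a CBP-type acetyltransferase, 2 regions were higher and 3 lower. Of the 47 tested regions of Sh, the Shaker potassium channel, 24 were lower and 1 higher, beside the 40.2% of all X regions that were lower.

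On autosomes the differences ran in both directions. Of 19090 regions tested, 1077 (5.64%) were higher in DD and 739 (3.87%) lower at a limma adjusted p under 0.1. Among regions called in all 7 libraries, 476 were higher and 605 lower, so higher calls outnumbered lower ones only when regions left uncalled by some library were counted. That split moved with the scaling, to 1582 higher and 546 lower after quantile scaling, and the fit on only regions called in all 7 gave 857 higher and 1044 lower. Without DD replicate 2 the counts were 195 and 112, and without LD replicate 1 they were 1970 and 1430. In bulk samples fewer cells of a type and less open chromatin per cell cannot be told apart.

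Start sites leaned towards DD and introns towards LD. Of 7709 autosomal start site regions, within 500 bp of an annotated start, 549 (7.12%) were higher in DD and 156 (2.02%) lower, with a median of 0.07. Of 7042 intronic regions, 300 (4.26%) were higher and 389 (5.52%) lower, with a median of -0.02. Start sites thus made up 51.0% of the higher regions, 21.1% of the lower regions and 40.4% of all tested. The share of each library's own autosomal peaks at start sites was nonetheless 40.9% ± 1.23 in DD and 42.1% ± 1.33 in LD (SD, n = 3 and 4), a difference within the spread between libraries (two-sided exact permutation p = 0.257). Over the same number of strongest peaks in each library the DD share was the higher one, by 1.42 percentage points (exact permutation p = 0.0857).

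The autosomal region of largest increase in DD was the start site of bdl, at chr2L:4324189-4324874, which encodes the immunoglobulin-family membrane protein Borderless. It had 4.39, 6.94 and 5.72 CPM in DD, against 3.15, 2.34, 1.7 and 2.52 CPM in LD (1.2 ± 0.21 on the log2 scale, adjusted p = 0.011). DD replicate 1 was the lowest of DD and LD replicate 1 the highest of LD. Absence of overlap was a condition for naming a region, met by 14.5% of the autosomal regions called in all 7 libraries. An intron of axo, axotactin, a protein secreted by glia, had 4.0, 6.25 and 6.11 CPM in DD and 3.4, 2.54, 1.9 and 3.06 CPM in LD (0.97 ± 0.22, adjusted p = 0.021). The start site of Adh, alcohol dehydrogenase, had 4.28, 6.76 and 5.04 CPM in DD and 3.32, 2.78, 1.9 and 2.73 CPM in LD (0.97 ± 0.2). Elp6, a subunit of the Elongator complex, tmod, which caps actin filaments, Cdk4, a kinase of growth and the cell cycle, CG18622, CG4806, CR44868 and CR45737 made up the other 7 regions of largest increase, at differences of 0.95 to 1.02. At bdl, axo and Adh all 4 per01 DD libraries lay above the lowest wild-type DD library, whereas at CG4806 they held 1.93 to 3.23 CPM, below the DD libraries at 4.14, 4.25 and 3.83 CPM.

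**Figure D3:**
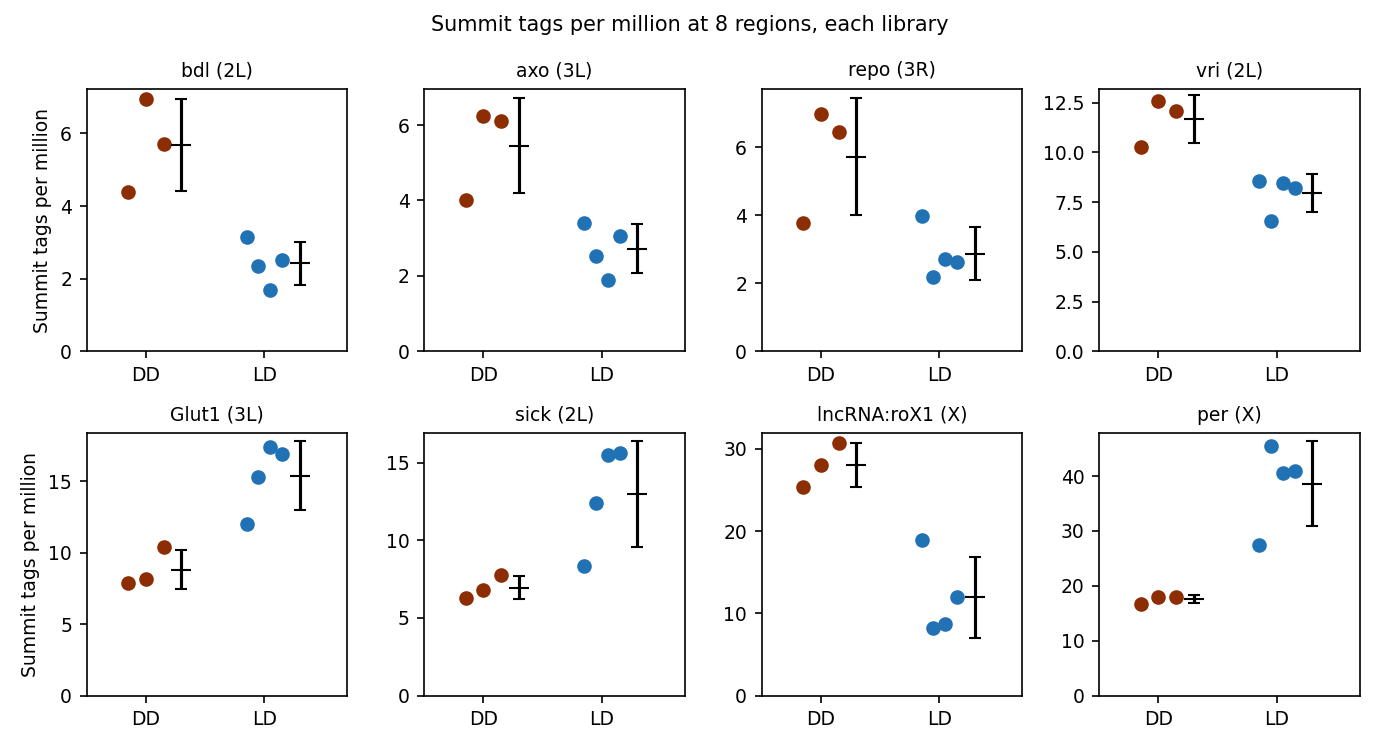
Summit tags (CPM) at 8 regions in each DD library (left, n = 3) and each LD library (right, n = 4), with the group mean and SD beside the points. Arms are given in brackets. At bdl DD libraries lie at 4.39 to 6.94 and LD libraries at 1.7 to 3.15, and at Glut1 DD libraries lie at 7.89 to 10.4 and LD libraries at 12.0 to 17.4.

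The autosomal regions of largest decrease were mostly intronic or intergenic. The start site of the noncoding RNA CR45679, at chr3R:13443789-13444373, had 3.32, 3.88 and 3.1 CPM in DD and 5.39, 6.21, 6.82 and 7.39 CPM in LD (-0.92 ± 0.14, adjusted p = 0.0077). An intron of sick, a regulator of actin, had 6.31, 6.82 and 7.75 CPM in DD and 8.34, 12.4, 15.5 and 15.6 CPM in LD (-0.88 ± 0.2, adjusted p = 0.022). An intron of Glut1, the glucose transporter, at chr3L:963684-965090, had 7.89, 8.16 and 10.4 CPM in DD and 12.0, 15.3, 17.4 and 16.9 CPM in LD (-0.82 ± 0.14, adjusted p = 0.01). LD replicate 1 was the lowest LD library at all 3. The remaining 7 regions, at shep (an RNA-binding protein), Toll-6 (a neurotrophin receptor), Cad87A (a cadherin), Ten-m (a teneurin of synaptic partner matching), uzip (a cell adhesion protein) and 2 sites beside CR45704, fell by 0.75 to 0.85. The Toll-6 region was intergenic and carries the name of the nearest start site, 35226 bp away.

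Regions that some library left uncalled gave the largest fitted differences, and these depend on the tags assumed for a missing call. An intronic region of Atpalpha, the catalytic subunit of the sodium pump, was called at 10.4, 13.1 and 12.3 CPM in DD and in no LD library, whose nearest called peaks lay 174 to 196 bp away at 9.07 to 9.53 CPM. An intronic region of IA-2, a phosphatase-like protein of dense-core vesicles, was called at 13.1, 16.2, 14.5 and 15.4 CPM in LD and in no DD library. There the nearest DD peaks lay 317 to 332 bp away at 32.1 to 36.7 CPM. At enc the LD calls were 8.73 to 9.59 CPM and no DD library called the region. No fold is given for any of them, since a missing call beside a called peak is not a level of 0. VhaM9.7-c, a proton pump subunit, and HmgD, a chromatin protein, were the other 2 of largest increase, and CG46468 the other of largest decrease.

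Over all autosomal regions, 241 were called in every DD and no LD library, and 23 in every LD and no DD library. Of the 241, 76 were also called in all 4 per01 libraries and 24 in none, while of the 23 none was called in all 4 and 13 in none. The 241 regions were weak, with a median of 2.24 CPM in the library where each was highest. On the X the numbers were 56 and 66. A complete split of 3 against 4 has a smallest Fisher's exact p of 0.0286 for a single region. Without LD replicate 1, 788 autosomal regions were called in every DD and no LD library, and 33 in every LD and no DD library. Library depth moves with these counts, since 2 of 3 DD libraries but 1 of 4 LD libraries were among the deepest, and its part was not tested.

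Libraries of one regime shared slightly more called bases than libraries of different regimes. The Jaccard index of called autosomal bases averaged 0.805 within DD, 0.805 within LD and 0.776 between them. Within minus between regimes was 0.0291, a value that 0.0857 of the 35 splits reached (one-sided exact permutation test), which misses 0.05. LD replicate 1 averaged 0.815 with DD and 0.792 with the other LD libraries. Without it the difference was 0.0488, with p = 0.1, the smallest that 3 libraries against 3 allow in this exact test.

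Glial genes were represented by 19 genes, of which 15 had a region on any chromosome. Of their 18 autosomal regions called in all 7 libraries, 4 were higher in DD and 0 lower, 22.2% beside 3.51% of the 13558 such autosomal regions, with a median of 0.09. Counting also the regions that some library left uncalled, 13 of 35 were higher and 0 lower (37.1%, beside 5.64% of all autosomal regions), with a median of 0.13 beside 0.03. The 9 further higher regions were called in all 3 DD libraries and in 0 to 3 of the LD libraries, so their LD levels are partly the tags assumed for a missing call and the larger count is a description. The higher regions belonged to 9 genes. At repo, the homeobox gene that sets glial identity, the start site region had 3.77, 6.97 and 6.46 CPM in DD and 3.98, 2.18, 2.71 and 2.64 CPM in LD (0.95 ± 0.24, adjusted p = 0.032), so DD replicate 1 lay among the LD libraries. At nrv2, a sodium pump subunit of glia, the intronic and start site regions were called at 4.84 to 7.43 CPM in DD and in no LD library. The start site of Gat, the glial GABA transporter, was called at 2.87, 3.91 and 3.18 CPM in DD and in 2 of 4 LD libraries. The intron of Eaat1, the glial glutamate transporter, had 3.04, 4.15 and 3.06 CPM in DD and 2.35, 1.93 and 1.65 CPM in the 3 LD libraries that called it. Summed over the 16 glia markers, called peaks held 150.2, 198.3 and 192.4 CPM in DD, 143.0, 124.2, 119.8 and 112.3 CPM in LD, and 174.1 to 198.9 CPM in per01. A missing call adds nothing to such a sum, so the sums partly reflect how many peaks were called. At nrv2, for example, 5, 6 and 6 peaks were called in DD and 3, 2, 2 and 1 in LD. The count of higher glial regions was 5 without DD replicate 2 and 16 without LD replicate 1.

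A list of 16 pan-neuronal genes gave 158 autosomal regions, of which 2 were higher in DD and 11 lower (6.96%, beside 3.87% of all), with a median of -0.07. Of the 120 called in all 7 libraries, 1 was higher and 9 lower (7.5%, beside 4.46% of all such regions). Genes of the list on the X, such as elav and para, do not enter these counts. Rbp6 alone held 73 of the 158 regions, with 1 higher and 4 lower. Both lower regions of brp, the active zone scaffold Bruchpilot, were intronic. At chr2R:9514953-9515207 it had 17.3, 17.1 and 19.1 CPM in DD and 21.3, 24.3, 25.4 and 24.7 CPM in LD (-0.45 ± 0.09, adjusted p = 0.013). An intron of Rim, an active zone organiser, fell by 0.66, although another Rim region was called in every DD library and in LD replicate 1 alone and counted as higher, and the start site of nSyb, the synaptic vesicle SNARE, fell by 0.45. A region assigned to ChAT, the gene for acetylcholine synthesis, with its summit at a start site of CR46265, had 6.51, 7.4 and 7.75 CPM in DD and 8.84, 10.6, 9.72 and 14.7 CPM in LD (-0.6, adjusted p = 0.037), and the Ddc region, at the gene for dopamine and serotonin synthesis, fell by 0.45. Summed tags at called peaks of the 15 neuron markers, 1627.1, 1634.6 and 1878.6 CPM in DD and 1754.0 to 1877.9 CPM in LD, overlapped. The count of lower neuronal regions was 2 without DD replicate 2 and 25 without LD replicate 1. The part of the cell mixture in the glial and neuronal differences was not tested.

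**Figure D4:**
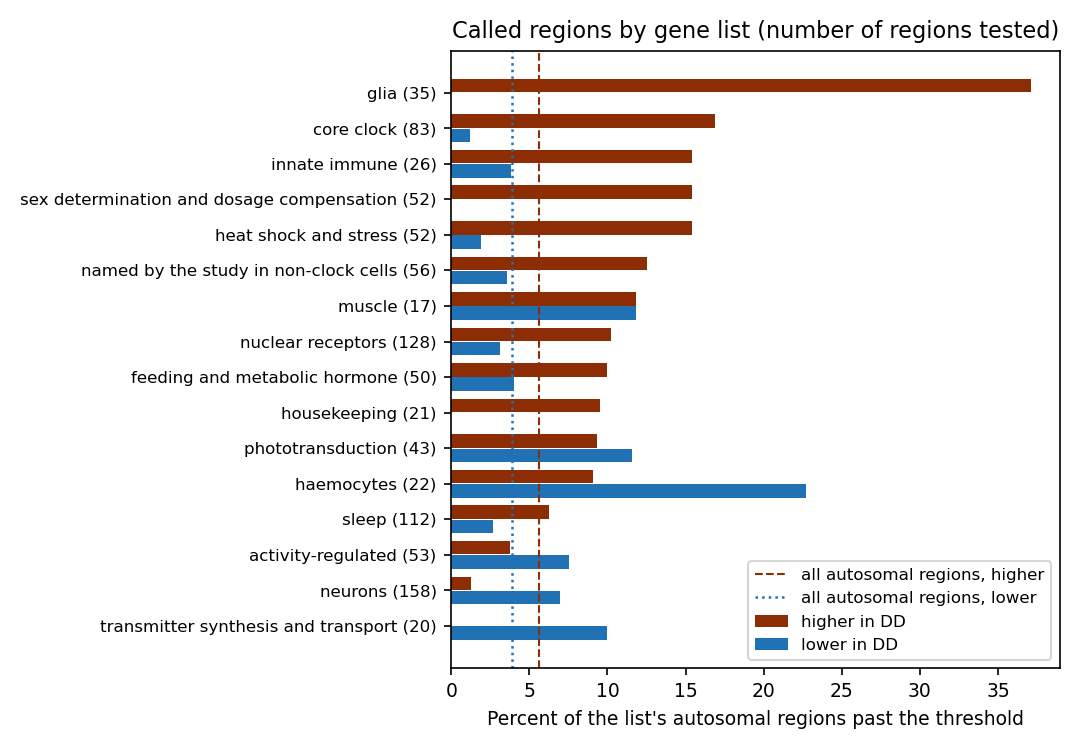
Share of the autosomal regions of each gene list that were higher (brown) or lower (blue) in DD, with the number of regions tested in brackets, for lists with 15 or more regions. Dashed and dotted lines give the same shares over all 19090 autosomal regions, 5.64% and 3.87%. Glia stand at 37.1% higher over all 35 regions and at 22.2% over the 18 called in all 7 libraries, which are not drawn apart.

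Of the 83 autosomal regions of core clock genes, 14 were higher and 1 lower, 16.9% and 1.2% beside 5.64% and 3.87%, with a median of 0.15. Of the 60 called in all 7 libraries, 8 were higher (13.3%, beside 3.51% of all such regions) and 0 lower. The start site of vri, a repressor of Clk, had 10.3, 12.6 and 12.1 CPM in DD and 8.57, 6.57, 8.47 and 8.23 CPM in LD (0.53 ± 0.11, adjusted p = 0.015). The start site of cyc, the partner of Clk, had 8.51, 9.98 and 9.08 CPM in DD and 7.82, 5.8, 6.77 and 5.75 CPM in LD (0.47 ± 0.11, adjusted p = 0.026). Of 17 regions of Pdp1, an activator of Clk, 5 were higher, and the one of largest difference was called at 4.17, 5.7 and 6.07 CPM in DD and in no LD library. An intron of Clk itself was called at 1.94, 2.61 and 2.97 CPM in DD and at 1.63 CPM in 1 LD library. Both higher regions of cry, the blue-light receptor, differed by 0.38 and 0.77, and dco, the casein kinase also known as doubletime, by 0.27. The cry region at chr3R:19212986-19213201 was called in only 4 of the 21 wild-type libraries of both cell classes. Its LD level is thus partly the tags assumed for a missing call. None of the 4 tim and 3 cwo regions passed the threshold. The tim start site at chr2L:3507183, for example, had 5.38, 9.13 and 7.36 CPM in DD and 6.24, 6.16, 4.56 and 7.01 CPM in LD (adjusted p = 0.43). The per01 libraries, which lack a working clock, held 9.27 to 12.5 CPM at vri and 5.93 to 7.92 CPM at cyc. The clock count was 2 without DD replicate 2 and 22 without LD replicate 1.

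Sex determination genes on autosomes had 8 of 52 regions higher (15.4%, beside 5.64% of all) and 0 lower. Of the 34 called in all 7 libraries 3 were higher (8.82%, beside 3.51% of all such regions). The count of 8 was 3 without DD replicate 2 and 12 without LD replicate 1. Of the 8, 4 lay at dsx and 3 at fru, the switch genes of sex-specific development and behaviour, and 1 at msl-1, a subunit of the MSL complex. The fru regions and some of the dsx regions were called in only 4 of the 21 wild-type libraries of both cell classes. Their LD levels are thus partly the tags assumed for a missing call. The msl-1 start site had 12.1, 11.5 and 10.5 CPM in DD and 9.59, 7.21, 7.72 and 6.97 CPM in LD (0.51 ± 0.11, adjusted p = 0.016). The start site of msl-2, the subunit made only in males, had 7.8, 8.22 and 7.83 CPM in DD and 7.74, 8.34, 7.67 and 8.48 CPM in LD (adjusted p = 0.78). Among genes of heat shock and stress, 8 of 52 regions were higher and 1 lower, beside 5.64% and 3.87% of all, and 6 and 1 of the 42 called in all 7. The higher count was 1 without DD replicate 2, 3 without DD replicate 1 and 15 without LD replicate 1. The small heat shock genes Hsp23, Hsp26 and Hsp27 each differed by 0.33 to 0.34 where all 7 libraries called their start sites, and Hsp68 by 0.27. Among nuclear receptors, 13 of 128 regions were higher and 4 lower, beside 5.64% and 3.87% of all, and of the 104 called in all 7 libraries 6 (5.77%) and 4 (3.85%), beside 3.51% and 4.46%. The higher count was 2 without DD replicate 2, 7 without DD replicate 1 and 25 without LD replicate 1. The 13 included 5 of 34 regions of Eip75B, a haem-binding ecdysone target, at 0.28 to 0.68, and 3 of ftz-f1.

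The study itself named eIF5B, Eip75B, Sh, vri and CG31140 in non-clock cells, as genes with regions more accessible at dusk than at dawn. That contrast is not DD against LD, so their counts here do not test it. The genes came from the same study, so the counts are not independent evidence either. Of their 56 autosomal regions, 7 were higher in DD, all at Eip75B and vri, and 2 were lower, both in introns of CG31140. The larger of those 2 had 6.53, 6.49 and 8.82 CPM in DD and 8.12, 15.4, 9.07 and 14.4 CPM in LD (-0.67 ± 0.22, adjusted p = 0.084). None of the 7 eIF5B regions passed the threshold. The other lists are given as counts of higher and lower regions, to be read against the 5.64% and 3.87% of all autosomal regions. Activity-regulated genes had 2 regions higher and 4 lower of 53, haemocyte genes 2 and 5 of 22, transmitter synthesis and transport genes 0 and 2 of 20, feeding and metabolic hormone genes 5 and 2 of 50, innate immune genes 4 and 1 of 26, sleep genes 7 and 3 of 112, phototransduction genes 4 and 5 of 43, and housekeeping genes 2 and 0 of 21. Fat body and tracheal genes had none of 9 and none of 5, muscle genes 2 and 2 of 17, all at Mef2, and photoreceptor genes 1 and 0 of 7.

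Clock neurons from flies of the same genotype were then read at the same regions, in 6 DD and 8 LD libraries other than those compared above. The study sorted the non-clock cells as a control for its clock neurons, so both classes may come from the same pools of flies. Agreement between them is therefore not independent replication, and the part of shared pools was not tested. In clock neurons 6.53% of 14544 autosomal regions were higher in DD and 6.68% lower. Of the 476 autosomal regions higher in non-clock DD cells and called in all 7 libraries, 420 could be tested there, 68.3% had a positive difference, and the median was 0.1, beside 47.3% and -0.01 over all 11929 such regions. Of the lower regions, 41.0% of 529 had a positive difference, with a median of -0.06. Of 42 higher X regions 39 had a positive difference in clock neurons and 28 passed the threshold. Of 1314 lower X regions tested there 969 (73.7%) were lower. Over all 2595 X regions called in all 7 libraries and tested there, 9.09% had a positive difference, 1.93% were higher and 58.5% lower. At pod1 the clock neuron libraries had 7.22 to 10.1 CPM in DD, against 2.81 to 5.47 CPM in the 7 LD libraries that called it. Single autosomal regions also differed in both cell classes. At Glut1 clock neurons had 5.34 to 7.46 CPM in DD and 6.95 to 13.4 CPM in LD (-0.63, adjusted p = 0.0046). The larger CG31140 region had 6.22 to 8.59 CPM in DD and 9.01 to 22.1 CPM in LD (-0.8, adjusted p = 0.0012). The IA-2 region left uncalled in non-clock DD cells was called in 1 of 6 clock neuron libraries in DD and in all 8 in LD.

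**Figure D5:**
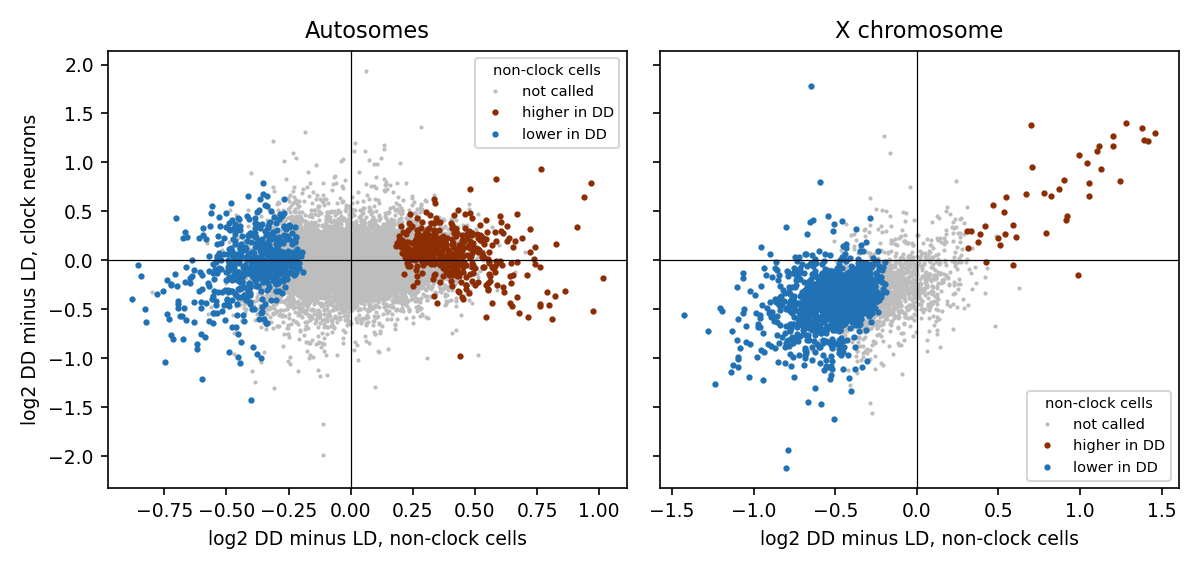
Log2 difference, DD minus LD, in clock neurons (vertical) against that in non-clock cells (horizontal), for regions called in all 7 non-clock libraries and tested in clock neurons. Colours mark regions higher or lower in DD in non-clock cells. On the X, 39 of 42 higher regions lie above 0 in clock neurons, beside 9.09% of all 2595 X regions. On autosomes 68.3% of 420 higher regions do, beside 47.3% of all 11929.

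The difference between the 2 cell classes was tested as an interaction over 21 libraries. It passed the threshold at 591 and 236 autosomal regions where the non-clock difference was the more positive and the more negative, 3.57% of 23172, and at 181 of 5063 X regions, also 3.57%. Among the 8722 autosomal regions called in all 21 libraries, however, 22 and 116 passed. The clock neuron libraries were shallower, at 7.32 to 16.98 M tags, and left more regions uncalled. CR45737 was called in all 21 and differed by 1.19 ± 0.25 (adjusted p = 0.013), with 3.58, 5.4 and 4.73 CPM in non-clock DD, 2.43, 2.26, 2.05 and 1.97 CPM in non-clock LD, and clock neuron medians of 3.23 CPM in DD and 3.85 CPM in LD.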

How the data were processed

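ATAC-seq libraries of sorted brain cells were processed by the authors with cutadapt 4.1, Bowtie2 2.4.5, SAMtools 1.15.1, Picard 2.27.4 and MACS2 2.2.7.1, and peaks were called in each library on dm6 without a control. The deposited peak lists give a fold over the local background and −log10 p and −log10 q for each summit, all at −log10 q of 3 or more. Summit tags were recovered from the deposited fold and −log10 p values, and were whole within 0.02 for 100% of peaks. Each library total came from its lowest background.

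Peaks of the 7 libraries that share at least 1 bp were merged. Regions called in 3 or more libraries were tested with limma 3.58.1 (R 4.3.3, trend) on log2(scaled tags + 1), scaled by the median of ratios over autosomal regions, with a missing call set to the library's lowest summit, Benjamini-Hochberg adjustment over all regions and a threshold of 0.1. Fold changes of weak regions are understated by the pseudocount. On simulated tags for 13558 regions, 100% of 2-fold and 96% of 1.5-fold changes were found, and 15 of the 211 calls were at unchanged regions. The simulated libraries were independent, with a spread set by the median region, no missing calls and no library apart from its group. The shares found therefore do not carry over to the real libraries, where LD replicate 1 stood apart. Single values were compared by exact permutation over 35 splits. Annotation was Ensembl release 115, and a start site region has its summit within 500 bp of a start. The regions named are those past the threshold, called in all 7 libraries and without overlap of DD and LD, 10 in each direction on autosomes and 5 on the X, with 3 in each direction that had a missing call. Members and gene lists were chosen with earlier results of these data known. Alternatives covered scaling, missing calls, pseudocount, filters, peak threshold, merging, the replicate block and leaving out each library.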

Additional observations from a re-analysis of the deposited data

Results flagged for a closer look

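For 18 of the 36 named regions with a value, an interaction term fitted over 21 libraries passed the threshold (limma adjusted p under 0.1). It passed at 3.57% of all autosomal regions and at 3.57% of all X regions. The named regions were chosen for large DD minus LD differences in the same non-clock libraries. A higher share among them was thus built in by the choice and is not a result. Each value is the non-clock minus the clock neuron difference on the log2 scale. Among regions higher in non-clock DD cells it was 1.33 at bdl, 1.19 at CR45737, 1.21 at CG18622, 1.12 at Cdk4, 1.48 at CR44868, 1.05 at axo, 1.18 at Adh, 1.41 at Elp6 and 1.11 at tmod. Among regions lower there it was -0.86 at CR45679, -0.68 at a site beside CR45704, -1.17 at NetB, -1.05 at kirre and -1.2 at trol. Where a non-clock group had a missing call it was 3.14 at Atpalpha, 2.72 at VhaM9.7-c, -4.25 at enc and -2.36 at CG46468. CR45737 was called in all 21 libraries, and its values are those of both cell classes. The others were called in 3 to 13 of the 21. Atpalpha, VhaM9.7-c, CG46468, CR45679 and trol were called in no clock neuron library and bdl, axo and tmod in 1, so most of these values restate the non-clock difference beside tags assumed for missing calls, and the clock neuron difference there was not measured. No LD library stood outside its group in the 33 groups of 4 LD values examined for a lone high or low value (Dixon's test). These were the named regions called in all 7 libraries, the X to autosome ratio, the Y tags and the start site share. Chance alone would trip this check in about 1 group in 20. It takes each value singly and does not bear on the correlations that set LD replicate 1 apart.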

How the results depend on the processing

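Of 1816 autosomal and 1907 X regions called, none of those tested changed direction under the scaling, missing-call, pseudocount, filter, block or left-out-library settings, but the counts moved, and 735 autosomal and 425 X calls were not tested when only regions called in all 7 libraries entered, and 14 to 38 in each fit without an LD library. With regions built from summits within 150 bp, 838 autosomal regions passed, 563 higher and 275 lower, 1129 X regions were lower, 99 X regions were called in every DD and no LD library, and 57 autosomal ones in every LD and no DD library. On regions called in all 7 libraries, 55 X regions were higher. Leaving out 1 library gave 307 to 3400 autosomal calls, 195 to 1970 higher and 112 to 1430 lower, the lowest without DD replicate 2 and the highest without LD replicate 1, and on the X 881 to 2263 calls, 120 to 248 higher and 761 to 2015 lower. The counts of regions called in one regime alone ran, in DD, over 254 to 788 on autosomes and 57 to 168 on the X, and, in LD, over 33 to 57 and 79 to 129. A −log10 q of 10 or more gave 157 autosomal regions for DD. Letting 1 library of each regime differ gave 2323 and 339 for DD and 327 and 355 for LD.

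The X to autosome difference, DD minus LD, was -0.238 with medians (p = 0.0571) and -0.0494 with summed tags (p = 0.0571), a ratio on another scale, 0.188 in DD and 0.237 in LD, whose DD to LD ratio was 0.792 beside 0.789 for the mean tags, and it was -0.263 to -0.213 with 1 library left out, each at the smallest exact permutation p allowed, 0.0667 or 0.1. The start site share differed by 1.42 percentage points, the other way round, over the same number of strongest peaks (exact permutation p = 0.0857). In clock neurons 354 autosomal regions were lower under quantile scaling, and 41 X regions were higher among those called in all 14 libraries. Among regions called in all 21 the interaction passed at 22 and 116 autosomal and 3 and 9 X regions, and under quantile scaling at 164 X regions with the more negative non-clock difference. Among the named and listed regions, single ones turned round at CkIIbeta (0.69), Hk (0.51) and elav (0.23) with summits within 150 bp and at wake (-0.06) with the stricter q.

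Same-numbered DD and LD libraries did not deviate together (r of 0.209, -0.177 and 0.077), so the numbers do not pair them. With the number as a replicate block, 871 autosomal regions passed, 516 higher and 355 lower. Gene-list counts without single libraries were added after seeing the data.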
